A study of Mus musculus with 6 samples.

Results

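Iron storage, iron transport and heme breakdown were followed through 10 genes chosen by name: the rows of the deposited expression table for Fth1, Ftl1, Slc40a1, Tfrc, Slc11a1, Slc11a2, Hamp, Hmox1, Lcn2 and Aco1, which are 10 of the 24752 genes in the table. Expression was measured by RNA sequencing of total RNA from 6 libraries of mouse bone marrow derived macrophages. These cells were grown for 7 days from the marrow of mice aged 8 to 10 weeks, in medium with 10 ng/ml of M-CSF, the growth factor that turns marrow precursors into macrophages. The 3 groups had 2 libraries each, lettered B and C. The control group received no other label. The LPS group had 100 ng/ml of lipopolysaccharide, the bacterial cell wall component sensed through Toll-like receptor 4, for 3 h. The group labelled as overexpressing Glul with LPS, written Glul_LPS here, had the same LPS treatment after a lentiviral vector for Glul, the glutamine synthetase gene. Lentiviral vectors, control or Glul, were on the cells for 36 h, but the labels do not say which vector the control and LPS libraries carried. No group had the Glul vector without LPS. The labels give no strain and leave unsaid whether the B and C libraries are different mice, different cultures or the same cells. The p-values below therefore reflect how far these particular libraries differ, and that spread may be technical.

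Macrophages take iron from serum and from the heme of old red cells, store it in ferritin and return it to the circulation. Ferritin is a shell of heavy chains (Fth1), which oxidise the incoming iron, and light chains (Ftl1). Ferroportin (Slc40a1) is the iron exporter of the cell surface, and hepcidin (Hamp) is the peptide hormone that binds ferroportin and has it degraded. Transferrin receptor 1 (Tfrc) takes up iron bound to transferrin, DMT1 (Slc11a2) moves ferrous iron out of endosomes, and NRAMP1 (Slc11a1) moves metal ions across the phagosome membrane. Heme oxygenase-1 (Hmox1) opens the heme ring and frees its iron. Lipocalin-2 (Lcn2) binds bacterial siderophores, the small molecules with which bacteria collect iron. Aconitase 1 (Aco1) is the cytosolic aconitase when it holds an iron-sulfur cluster and iron regulatory protein 1 when it does not.

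Iron regulatory proteins bind a hairpin, the iron-responsive element, in the untranslated regions of several of these mRNAs. Bound near the 5′ end it blocks translation, and bound in the 3′ region of the transferrin receptor mRNA it protects that mRNA from decay. The elements are shown because 4 of the 10 genes carry the matched pattern, in positions that differ between the storage and export genes on the one hand and the uptake receptor on the other. The pattern searched was a C, 5 bases, the loop CAGTGN with a last base other than G, and 5 bases that pair with the first 5, with G-U pairs allowed. Each line gives a site of 30 bases 5′ to 3′, read from the GENCODE M21 transcripts on build GRCm38, and the capitals mark the 6 bases of the loop.
Fth1, 5′ UTR, chr19:9982732-9982761, plus strand: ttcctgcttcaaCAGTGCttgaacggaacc
Ftl1, 5′ UTR, chr7:45459778-45459807, minus strand: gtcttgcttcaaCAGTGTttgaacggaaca
Slc40a1, 5′ UTR, chr1:45925464-45925493, minus strand: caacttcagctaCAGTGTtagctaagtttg
Tfrc, 3′ UTR, chr16:32631219-32631248, plus strand: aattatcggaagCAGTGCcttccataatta
Tfrc, 3′ UTR, chr16:32631598-32631627, plus strand: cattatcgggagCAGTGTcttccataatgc
Tfrc, 3′ UTR, chr16:32631663-32631692, plus strand: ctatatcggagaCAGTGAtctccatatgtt
Tfrc, 3′ UTR, chr16:32631710-32631739, plus strand: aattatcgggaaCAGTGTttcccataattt
The pattern was found in 23 of 20916 genes with an annotated 5′ UTR (0.11%) and in 100 of 21039 genes with an annotated 3′ UTR (0.475%). The search misses an element with a mismatch or an extra base in these 5 pairs. A gene without a match may therefore still carry an element, and a gene with a match may carry more. A match describes the letters and is not a measurement of binding, and translation was not measured.

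Values are FPKM, fragment counts divided by gene length and by library total, so that levels can be compared between genes per length. Library totals worked back from the values ran from 15649764 to 18691669 fragments, and the r of log2 values between the 2 libraries of a group was 0.9935 to 0.9943 over the tested genes. Glul itself was at 140.2 and 140.3 FPKM in the control libraries, 30.55 and 33.42 in the LPS libraries and 37.18 and 37.75 in the libraries labelled Glul_LPS. The difference between Glul_LPS and LPS was 0.22 on the log2 scale (adjusted p = 0.122), which did not pass the threshold, while voom on recovered fragments gave 0.23 (adjusted p = 0.045), so the call depends on the fit. Every direction drawn below for the libraries labelled Glul_LPS therefore rests on their label. Of 8 macrophage markers 7 were in the table, all above 1 FPKM in at least 1 library, and their summed FPKM was 21853.1 to 22608.6 in control, 17356.6 to 18673.2 in LPS and 19869.9 to 21120.1 in Glul_LPS. The most abundant was Lyz2, lysozyme, with a mean of 15987.4 FPKM. Of 12 neutrophil markers 7 stayed under 1 FPKM in every library, and the list's sum was 109.1 to 110.0 FPKM in control, 99.38 to 107.6 in LPS and 113.2 to 116.3 in Glul_LPS, led by Csf3r (mean 52.73). All 5 erythroid markers in the table stayed under 1 FPKM, led by Epor (mean 0.3215), and Apoa1, the hepatocyte marker in the table, had a mean of 0.01499. The red pulp macrophage list of 5 summed to 41.82 to 43.87 FPKM in control, 49.93 to 50.36 in LPS and 44.74 to 51.68 in Glul_LPS, led by Siglec1 (mean 26.25 over all libraries). Vcam1 alone rose with LPS (means 4.302 and 24.57), and Siglec1 (32.09 and 22.75), Spic (3.965 and 2.324) and Treml4 (1.938 and 0.3897) fell, while Cd163 stayed under 1 FPKM.

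In control macrophages the 10 genes ran from the highest FPKM of the library to none. Fth1 stood at a mean of 20977.2 FPKM (SD 186.9, n = 2), followed by Ftl1 at 432.2 (SD 39.62), Hmox1 at 243.5 (SD 13.34) and Slc11a1 at 164.1 (SD 5.321). Lower came Aco1 at 17.34 (SD 0.682), Slc11a2 at 13.7 (SD 0.2645), Slc40a1 at 8.585 (SD 0.9855), Lcn2 at 6.166 (SD 0.9434) and Tfrc at 5.102 (SD 0.5277), and Hamp was listed at 0 in both libraries. No neighbours in this order overlapped between their libraries, but Lcn2 and Tfrc nearly met (5.499 and 5.475 FPKM) and did not differ beyond their spread. Fth1 ranked first by FPKM in 5 of the 6 libraries and second in LPS replicate C, and it took 1.303% to 1.865% of all fragments in a library. The rank depends on the length behind its FPKM, which came out as 866 bases and not the annotated 3469.

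**Figure D1:**
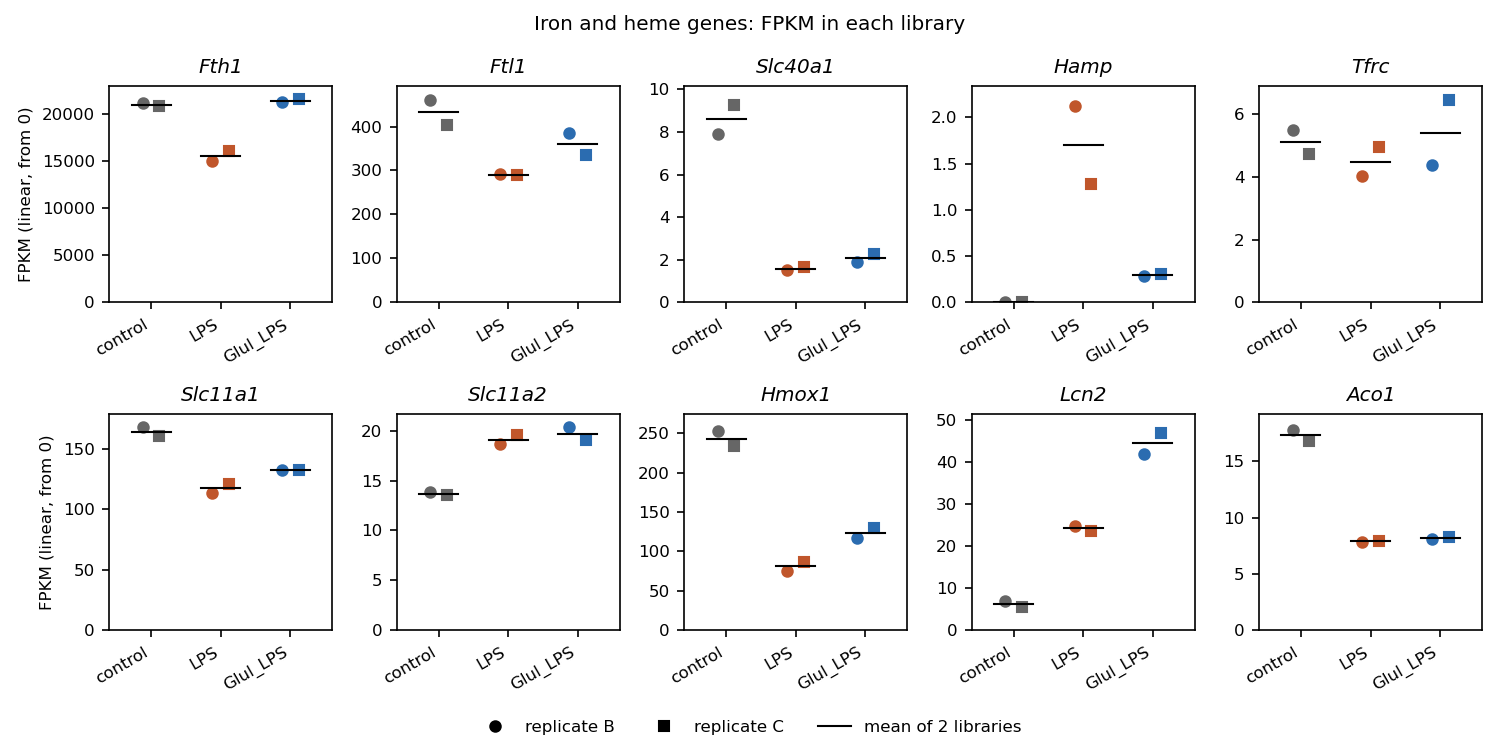
FPKM of the 10 iron and heme genes in each of the 6 libraries, on linear axes that start at 0; circles are replicate B, squares replicate C and bars the mean of the 2 libraries in control, LPS and Glul_LPS. Slc40a1, Hmox1 and Aco1 sit lower in LPS than in control, Lcn2 sits higher in LPS and highest in Glul_LPS, and Fth1 in Glul_LPS (21238.7 and 21533.8) lies just above its control libraries.

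The first question was what LPS did to these transcripts. Lcn2, Hamp and Slc11a2 rose with LPS, and Slc40a1, Hmox1, Aco1, Ftl1, Slc11a1 and Fth1 fell, so that Tfrc was the one gene without a call. Against that stands the background of this comparison: 85.2% of the 10962 tested genes passed the same threshold (limma on log2(FPKM + 1), Benjamini-Hochberg adjusted p under 0.05), 17.1% of them higher and 68.0% lower. A count of 9 among 10 is near that share and is not a result about the iron genes. The median tested gene fell by 0.50 on the log2 scale, and the median of the 10 genes fell by 0.46, whatever the size of the rise of Hamp. Each change is therefore also given relative to the median gene, a scale on which 66.8% of genes passed (34.6% higher, 32.2% lower). On that scale 3 of the 10 genes rose (Lcn2, Hamp and Slc11a2) and 3 fell (Slc40a1, Hmox1 and Aco1). Fewer cells of a type and less RNA per cell cannot be told apart in bulk samples such as these.

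Both ferritin chains were lower with LPS, but by about as much as the median gene. Fth1 (ENSMUSG00000024661, chr19:9982703-9985092, plus strand, GRCm38) was at 21109.3 and 20845.0 FPKM in control, 15042.7 and 16035.6 in LPS and 21238.7 and 21533.8 in Glul_LPS. Both LPS libraries lay under all 4 others. The change with LPS was -0.43 on the log2 scale (SE 0.06, 95% interval -0.58 to -0.29, adjusted p = 0.000543), and relative to the median gene it turned to 0.08 (adjusted p = 0.183). The call was also lost without the filter on low values (adjusted p = 0.295) and under quantile normalization (-0.16, adjusted p = 0.199). Ftl1 (ENSMUSG00000050708, chr7:45457944-45459884, minus strand) was at 460.2 and 404.1 FPKM in control, 291.1 and 289.0 in LPS and 384.2 and 334.5 in Glul_LPS. The 3 groups did not overlap, with control highest and LPS lowest. Its log2 change was -0.57 (SE 0.09, adjusted p = 0.000867) and -0.05 relative to the median gene (adjusted p = 0.605).

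The level of Ftl1 is uncertain, because 86.2% of its 50-base stretches also occur in 17 other annotated genes, among them the pseudogenes Ftl1-ps1 and Ftl1-ps2, and 34.6% of its exon bases overlap other genes. Only 3.59% of the stretches of Fth1 are shared, with 1 other gene. The ratio of Fth1 to Ftl1 FPKM, which carries this uncertainty, was 45.87 and 51.58 in control, 51.68 and 55.49 in LPS and 55.28 and 64.38 in Glul_LPS. Its level, though not its comparison between groups, also depends on an Fth1 length of 866 bases and not the annotated 3469. Control and LPS nearly met, LPS and Glul_LPS overlapped, and the group means were 48.73 (SD 4.035), 53.58 (SD 2.696) and 59.83 (SD 6.436), with no test made.

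The exporter fell most, and its hormone appeared from none. Slc40a1 (ENSMUSG00000025993, chr1:45908068-45926523, minus strand) was at 7.888 and 9.282 FPKM in control, 1.539 and 1.637 in LPS and 1.906 and 2.293 in Glul_LPS. The control libraries were far above the others, and the LPS and Glul_LPS libraries did not overlap. LPS took it to 0.185 of its control mean, a log2 change of -1.89 (SE 0.10, 95% interval -2.13 to -1.64, adjusted p = 9.62e-06) and of -1.37 relative to the median gene (adjusted p = 4.64e-05).

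Hamp (ENSMUSG00000050440, chr7:30942368-30944032, minus strand) had 0 fragments in both control libraries, 14 and 9 in the LPS libraries and 2 each in the libraries labelled Glul_LPS, which is 0 and 0, 2.12 and 1.284, and 0.2866 and 0.3117 FPKM. The groups did not overlap, and all levels were low. Against a floor of 3 fragments over the control group the observed LPS level was 8.32-fold higher. That value leaves out the counting error of the LPS libraries and is not a lower limit. The fitted log2 change of 1.42 (SE 0.15, adjusted p = 0.000167) depends on the pseudocount. Hamp passed the filter on low values only through its LPS libraries, so a difference was built into its being tested. Of its 50-base stretches 16.6% are shared with Hamp2, its neighbouring copy, which was listed at 0 in every library.

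The promoter of Hamp is shown because hepcidin was the member that went from no fragment to a detectable level. In liver, hepcidin is induced by interleukin-6 through the transcription factor STAT3. The 250 bases before the annotated start, chr7:30944030-30944279 on the minus strand, were taken from RefSeq on GRCm38.p6, and the capitals mark a match to the STAT pattern TTCNNNGAA that begins 97 bases before the start and a match to the AP-1 pattern TGANTCA that begins 87 bases before it.
Hamp promoter: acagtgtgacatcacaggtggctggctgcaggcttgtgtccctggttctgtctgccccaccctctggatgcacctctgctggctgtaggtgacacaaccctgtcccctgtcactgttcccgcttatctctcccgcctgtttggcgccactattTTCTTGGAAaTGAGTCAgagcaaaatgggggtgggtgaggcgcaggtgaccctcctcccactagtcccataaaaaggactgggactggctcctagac
Searched on both strands, the STAT pattern was in 7.02% and the AP-1 pattern in 6.75% of 32851 promoters of the same length. Promoters were matched for 7 of the 10 genes. The pattern TTNNGNAA, bound by C/EBP factors, was in 36.8% of all promoters and in those of Lcn2, Fth1, Ftl1 and Slc11a1. An NF-kB consensus match was in 3.9% of all promoters and in that of Ftl1, beginning 15 bases before the start. TGACNNNGC, the antioxidant response element bound by NRF2, was in 10.2% of all promoters and in none of those matched here, which do not include Hmox1. These matches describe letters and say nothing on which factor acted.

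Of the uptake and transport genes 1 rose, 1 fell and 1 gave no call. Tfrc (ENSMUSG00000022797, chr16:32608920-32632794, plus strand) was at 5.475 and 4.729 FPKM in control, 4.006 and 4.945 in LPS and 4.37 and 6.436 in Glul_LPS. All 3 groups overlapped. Its log2 change with LPS was -0.16 (SE 0.17, 95% interval -0.57 to 0.25, adjusted p = 0.403), and 0.36 relative to the median gene (adjusted p = 0.102), so that its direction depended on the scale. Slc11a1 (ENSMUSG00000026177, chr1:74375195-74386062, plus strand) was at 167.9 and 160.4 FPKM in control, 113.9 and 121.2 in LPS and 132.9 and 132.3 in Glul_LPS. The groups did not overlap, with Glul_LPS between the others. Its log2 change of -0.48 (SE 0.05, 95% interval -0.60 to -0.36, adjusted p = 0.000159) was that of the median gene, since relative to it the value turned to 0.04 (adjusted p = 0.481).

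Slc11a2 (ENSMUSG00000023030, chr15:100387898-100425072, minus strand) went against the bulk of the genes. It was at 13.88 and 13.51 FPKM in control, 18.68 and 19.53 in LPS and 20.32 and 19.08 in Glul_LPS. Both groups with LPS lay above control and overlapped each other. The log2 change with LPS was 0.45 (SE 0.06, 95% interval 0.31 to 0.59, adjusted p = 0.000348) and 0.97 relative to the median gene (adjusted p = 1.18e-05). Gm5475 overlaps 6.33% of its exon bases on the other strand, and strand use in the counting is not given in the sources used here.

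Hmox1, at the head of heme breakdown, fell to 0.332 of its control mean. It (ENSMUSG00000005413, chr8:75093621-75100589, plus strand) was at 252.9 and 234.0 FPKM in control, 74.76 and 87.1 in LPS and 117.5 and 129.5 in Glul_LPS. The groups were well apart, with Glul_LPS between control and LPS. The log2 change with LPS was -1.58 (SE 0.09, 95% interval -1.80 to -1.36, adjusted p = 1.14e-05) and -1.06 relative to the median gene (adjusted p = 6.72e-05).

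Lcn2 (ENSMUSG00000026822, chr2:32384633-32388252, minus strand) rose 3.94-fold. It was at 6.833 and 5.499 FPKM in control, 24.86 and 23.72 in LPS and 41.93 and 47.02 in Glul_LPS, and no groups overlapped. The log2 change with LPS was 1.83 (SE 0.10, 95% interval 1.58 to 2.07, adjusted p = 1.11e-05) and 2.34 relative to the median gene (adjusted p = 4.43e-06). Lcn2 is also a granule protein of neutrophils. Of the 12 neutrophil markers the 7 under 1 FPKM in every library were Camp, Ltf, Elane, Mpo, Prtn3, Ly6g and Retnlg. Of the other 5, S100a8 (log2 change 0.27, adjusted p = 0.0472) and Csf3r (0.24, adjusted p = 0.0164) rose with LPS, Mmp8 fell by 0.47 (adjusted p = 0.00218), and S100a9 (0.09, adjusted p = 0.695) and Ngp (-0.05, adjusted p = 0.797) gave no call. Their part in the Lcn2 change was not tested.

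Aco1, the sensor, fell by about 1 log2 unit. Aco1 (ENSMUSG00000028405, chr4:40143081-40198338, plus strand) was at 17.83 and 16.86 FPKM in control, 7.859 and 7.947 in LPS and 8.116 and 8.257 in Glul_LPS. Control lay far above both other groups, which differed little. The change with LPS was -1.04 on the log2 scale (SE 0.06, 95% interval -1.18 to -0.91, adjusted p = 9.27e-06) and -0.52 relative to the median gene (adjusted p = 0.000245).

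**Figure D2:**
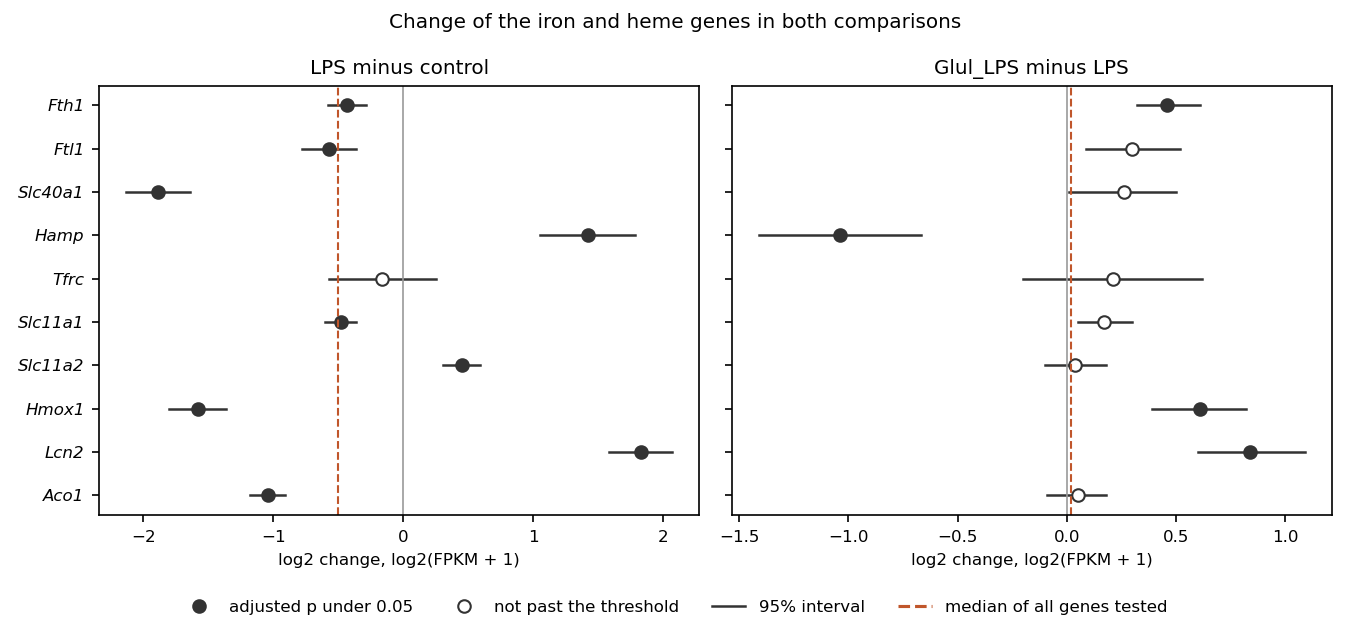
Log2 change of each gene with its 95% interval for LPS minus control and for Glul_LPS minus LPS, on the log2(FPKM + 1) scale; filled points passed an adjusted p of 0.05 and the dashed line is the median of all tested genes. In the first panel Fth1, Ftl1 and Slc11a1 lie on the dashed line at -0.50, Slc40a1 and Hmox1 lie far below it, and Lcn2 (1.83) and Hamp (1.42) far above; in the second panel Hamp (-1.04) is the one gene below 0.

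The second question was how the libraries labelled Glul_LPS differed from those with LPS alone, with the LPS libraries shared by both comparisons. Lcn2, Hmox1 and Fth1 were higher and Hamp was lower in the libraries labelled Glul_LPS. These are 4 of the 10 genes, or 3 of the other 9 without Hamp, whose place among the tested genes rests on its LPS level. Among all 10962 tested genes 1.1% passed (0.547% higher, 0.556% lower). The 10 genes were chosen with earlier results of these data known, so these shares do not compare an independent list with all genes. Relative to the median gene the same count of 3 higher and 1 lower was found, against 1.21% of all tested genes (0.483% higher, 0.73% lower). In all, 9 of the 10 genes had a log2 difference above 0, beside 6109 of the 10962 tested genes. Their median was 0.23 against 0.02 over all tested genes. An unadjusted p under 0.05 was found for 7 of the 10, beside 1915 of the 10962. The calls are fragile: leaving out any 1 library left 0 or 1 call, and without the filter on low values limma called none. The count-based voom fit on recovered fragments also called 4, all higher, with Ftl1 among them (0.31, adjusted p = 0.0181) and Hamp not. Among all the genes it tested, a smaller set than that of limma, voom called 549, where limma called 121. Its share of all tested genes called was therefore larger than 1.1%, and that figure is not the background of the voom calls.

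Lcn2 showed the largest of the higher values. Its libraries labelled Glul_LPS (41.93 and 47.02 FPKM) both lay above those with LPS alone (24.86 and 23.72), a 1.83-fold difference or 0.84 on the log2 scale (SE 0.10, 95% interval 0.60 to 1.09, adjusted p = 0.0253). The call held without either control library (adjusted p = 0.0409 without B and 0.0401 without C) and was lost without any of the others, with adjusted p of 0.144 and 0.12 without LPS B and C and 0.0637 and 0.134 without Glul_LPS B and C. The summed neutrophil markers were 99.38 and 107.6 FPKM in LPS and 116.3 and 113.2 in Glul_LPS, a sum carried by Csf3r (means 53.08 and 60.28) and Mmp8 (38.98 and 46.09). Other markers of the list lay the other way, with S100a9 at 3.212 and 3.697 FPKM in LPS and 1.576 and 0.7345 in Glul_LPS and Ngp at 1.27 and 0.9092 against 0.2404 and 0.1046. None of these 4 passed the threshold between the groups, and the part of such cells in the Lcn2 difference was not tested.

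Hmox1, the heme-degrading enzyme, was at 117.5 and 129.5 FPKM against 74.76 and 87.1, with no overlap. The difference was 0.61 on the log2 scale (SE 0.09, 95% interval 0.39 to 0.82, adjusted p = 0.0436), or 1.53-fold. Leaving out any 1 library ended the call, with adjusted p from 0.085 without Glul_LPS B to 0.182 without Glul_LPS C, and the difference stayed between 0.50 and 0.71.

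Fth1, the ferritin heavy chain, was at 21238.7 and 21533.8 FPKM against 15042.7 and 16035.6, and the difference between the groups was several times the spread within either. It came to 0.46 on the log2 scale (SE 0.06, 95% interval 0.32 to 0.61, adjusted p = 0.0318), or 1.38-fold, and to 0.43 relative to the median gene (adjusted p = 0.0247). As a share of all fragments it was 1.303% and 1.389% with LPS and 1.839% and 1.865% in Glul_LPS. Leaving out any 1 library ended the call (adjusted p from 0.0848 without control B to 0.147 without LPS B or Glul_LPS C), and quantile normalization, which forces the top ranks of all libraries to the same values, took the difference to 0.16 (adjusted p = 0.499).

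Hamp was the one gene lower in the libraries labelled Glul_LPS. With 23 fragments in the LPS libraries and 4 in those labelled Glul_LPS, the LPS level was 5.66 times as high, with a 95% counting interval of 1.93 to 22.5 that covers counting error only. The fitted log2 difference was -1.04 (SE 0.15, 95% interval -1.41 to -0.67, adjusted p = 0.0436), a p that carries little weight because Hamp passed the filter only through its LPS libraries, so that a lower value elsewhere was built in. It lost the call without any 1 library (adjusted p from 0.0818 without LPS C to 0.172 without Glul_LPS C) and in the count-based fit on recovered fragments (adjusted p = 0.0663).

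The other 6 genes gave no call. Ftl1, the ferritin light chain, differed by 0.30 on the log2 scale (95% interval 0.09 to 0.52, adjusted p = 0.162), Slc40a1 by 0.26 (0.01 to 0.50, adjusted p = 0.267) and Slc11a1 by 0.17 (0.05 to 0.30, adjusted p = 0.17). In these 3, and in Aco1 with its smaller difference, the libraries of the groups did not overlap. The share of all tested genes separated in this way was not counted, so the separation is not a result about these genes. Tfrc differed by 0.21 (95% interval -0.20 to 0.62, adjusted p = 0.581), Slc11a2 by 0.04 (-0.10 to 0.18, adjusted p = 0.766) and Aco1 by 0.05 (-0.09 to 0.18, adjusted p = 0.733). For Slc11a2 and Aco1 the intervals leave room for differences of up to 0.18 log2 units, and for Tfrc of up to 0.62.

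The third comparison set Glul_LPS against control, whose libraries it shares with the first. Of the 10 genes 2 were higher and 5 lower, where 84.3% of all tested genes passed (16.9% higher, 67.4% lower). Relative to the median gene 6 were higher, among them Hamp, whose value on that scale is limited as described below, and 3 were lower. On that scale 65.9% of all tested genes passed (34.2% higher, 31.7% lower). Lcn2 was 7.21-fold higher (log2 2.67, SE 0.10, adjusted p = 2.88e-06) and Slc11a2 was higher by 0.49 (SE 0.06, adjusted p = 0.000246). Slc40a1 remained lower by a log2 change of -1.63 (SE 0.10, adjusted p = 1.92e-05), Aco1 by -1.0 (SE 0.06, adjusted p = 1.27e-05) and Hmox1 by -0.97 (SE 0.09, adjusted p = 8.9e-05). Slc11a1 (-0.31, adjusted p = 0.00136) and Ftl1 (-0.27, adjusted p = 0.0259) were lower as deposited, but relative to the median gene they turned to 0.18 and 0.22 (adjusted p = 0.0139 and 0.0546). The Ftl1 call was also lost without control B (adjusted p = 0.143) or Glul_LPS C (adjusted p = 0.132).

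Fth1 in Glul_LPS differed from control by 0.03 on the log2 scale (95% interval -0.12 to 0.17, adjusted p = 0.677). Relative to the median gene, which was lower by a log2 value of -0.48, Fth1 was higher by 0.52 (adjusted p = 0.000174). Tfrc differed by 0.05 (95% interval -0.35 to 0.46, adjusted p = 0.779) and by 0.54 relative to the median gene (adjusted p = 0.0281). Hamp gave a fitted 0.38 (adjusted p = 0.054) from 4 fragments against 0, and 0.87 relative to the median gene (adjusted p = 0.00295). A gene near 0 in both groups cannot fall with the median gene, so centring lifts its value whatever its counts. The centred p of Hamp is therefore no evidence of a rise. Of 17 alternatives 11 called Hamp higher, that centring among them, with values over all 17 from 0.36 to 2.46.

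The other genes of iron and heme handling were taken from a list of 79 in 8 roles, of which 76 were in the table and 56 were expressed enough to be tested. With LPS 9 rose and 37 fell, and the 82.1% called is close to the 85.2% of all genes. Their median log2 change was -0.69 against -0.50 for all tested genes. Relative to the median gene 20 rose and 25 fell, beside 34.6% of all tested genes that rose and 32.2% that fell. Between Glul_LPS and LPS limma called 1 of the 56 higher and none lower, beside 1.1% of all tested genes. An unadjusted p under 0.05 was found for 16 of the 56, beside 1915 of the 10962. The voom fit, which tested fewer of the listed genes, called 4 higher and none lower, beside 549 called among all genes it tested. Those 549 are a larger share of the tested genes than the 1.1% of limma. No test compared the listed genes with all genes, so these counts are not a result about the list.

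Heme synthesis was mostly lower with LPS. Of 8 tested enzymes 7 fell and 1 rose, with a median of -1.15, beside 68.0% of all tested genes that fell. Relative to the median gene 6 fell and 1 rose, beside 32.2% of all tested genes that fell. Fech, ferrochelatase, which puts the iron into the ring, went from 21.67 and 21.24 FPKM in control to 7.899 and 9.555 in LPS (log2 change -1.21, adjusted p = 3.16e-05), and was at 8.243 and 8.722 in Glul_LPS. Its control libraries lay far above the others, and LPS and Glul_LPS overlapped. Cpox, coproporphyrinogen oxidase, changed by -1.31 (adjusted p = 1.12e-05) and Ppox, protoporphyrinogen oxidase, by -1.21 (adjusted p = 1.75e-05).

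Heme uptake, transport and breakdown held 11 tested genes besides Hmox1, of which 9 fell and none rose with LPS, beside 68.0% of all tested genes that fell. Relative to the median gene 4 fell and 1 rose, with a median of -0.19, beside 32.2% of all tested genes that fell and 34.6% that rose. Lrp1, the receptor for heme bound to hemopexin, changed by -0.98 (adjusted p = 6.28e-06) and Mfsd7b, the heme exporter also named Flvcr1, by -0.78 (adjusted p = 7.13e-05). Slc46a1, a heme and folate carrier, changed by -0.78 (adjusted p = 0.00157), a call lost relative to the median gene (-0.27, adjusted p = 0.12). Slc48a1, which carries heme out of the phagolysosome to the cytosol, was at 145.0 and 148.6 FPKM in control, 73.83 and 77.61 in LPS and 101.2 and 100.8 in Glul_LPS. No groups overlapped. Its change with LPS was -0.95 (adjusted p = 6.54e-06), and it was the one gene of the list called between Glul_LPS and LPS, at 0.41 (SE 0.05, adjusted p = 0.0243), a call lost without any 1 library (adjusted p up to 0.132).

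Among the genes of iron sensing, Nfe2l2, which encodes the factor NRF2 that drives ferritin and Hmox1 transcription, was at 177.0 and 162.3 FPKM in control and 63.2 and 58.15 in LPS, with 64.67 and 72.92 in Glul_LPS. Its change with LPS was -1.47 (adjusted p = 9.81e-06). Bach1, the heme-binding repressor of the same genes, went the other way, from 17.08 and 17.29 FPKM to 36.23 and 41.51 with LPS and 35.74 and 28.49 in Glul_LPS (log2 change 1.13, adjusted p = 0.000125). Both changes are larger than the spread within any group. Between Glul_LPS and LPS Nfe2l2 differed by 0.18 (adjusted p = 0.324) and Bach1 by -0.27 (adjusted p = 0.29). Ireb2, iron regulatory protein 2, fell by 0.20 (adjusted p = 0.0182) as deposited and stood 0.32 higher relative to the median gene (adjusted p = 0.00423). The first call was lost without control B (adjusted p = 0.0755), control C (0.0762) or LPS C (0.0824). Fbxl5, which targets it for degradation, rose by 0.41 (adjusted p = 0.00082).

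In the remaining roles, single genes stood out beside the falling bulk. Cp, ceruloplasmin, the ferroxidase that works with ferroportin, was at 2.919 and 2.436 FPKM in control, 13.33 and 11.9 in LPS and 18.97 and 25.61 in Glul_LPS. It rose with LPS (log2 change 1.89, adjusted p = 3.91e-05) and differed between Glul_LPS and LPS by 0.76 (adjusted p = 0.0761). Slc39a14, a zinc and iron importer, rose from 3.281 and 2.515 FPKM to 13.73 and 12.12 (log2 change 1.84, adjusted p = 1.43e-05), and Steap4, a metalloreductase, from 0.03391 and 0.03657 to 0.9645 and 1.038 (adjusted p = 0.000446), having passed the filter only through groups with LPS. Steap3, the ferrireductase of transferrin endosomes, fell by 0.75 (adjusted p = 0.000188), and Mcoln1, an endolysosomal iron channel, by 0.64, a call lost relative to the median gene (adjusted p = 0.256).

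The genes listed under storage, chaperones and ferritin turnover held the cargo receptor Ncoa4, which delivers ferritin to lysosomes. Ncoa4 fell from 38.35 and 41.58 FPKM to 19.39 and 20.1 with LPS (log2 change -0.98, adjusted p = 1.97e-05). Herc2, the ligase that degrades Ncoa4 in iron-rich cells, changed by -1.14 (adjusted p = 1.31e-05) and Nup153 by 0.27 (adjusted p = 0.0102), a call lost without LPS B (0.21, adjusted p = 0.0568). Of the genes listed under hepcidin control, Il6ra changed by -2.40 (adjusted p = 2.19e-06), Hfe by -1.57 (adjusted p = 2.29e-05) and Id1 by -1.12 (adjusted p = 1.7e-05), while Stat3 rose by 0.76 (adjusted p = 3.83e-05). Of 16 mitochondrial genes 12 fell and 1 rose, near the 68.0% of all tested genes that fell. Relative to the median gene 8 fell and 5 rose (median -0.19), beside 32.2% of all tested genes that fell and 34.6% that rose. Hscb, a co-chaperone of iron-sulfur cluster assembly, changed by -1.57 (adjusted p = 3.54e-06), Abcb8 by -1.32, Isca1 by -0.96 and Glrx5 by -0.90.

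**Figure D3:**
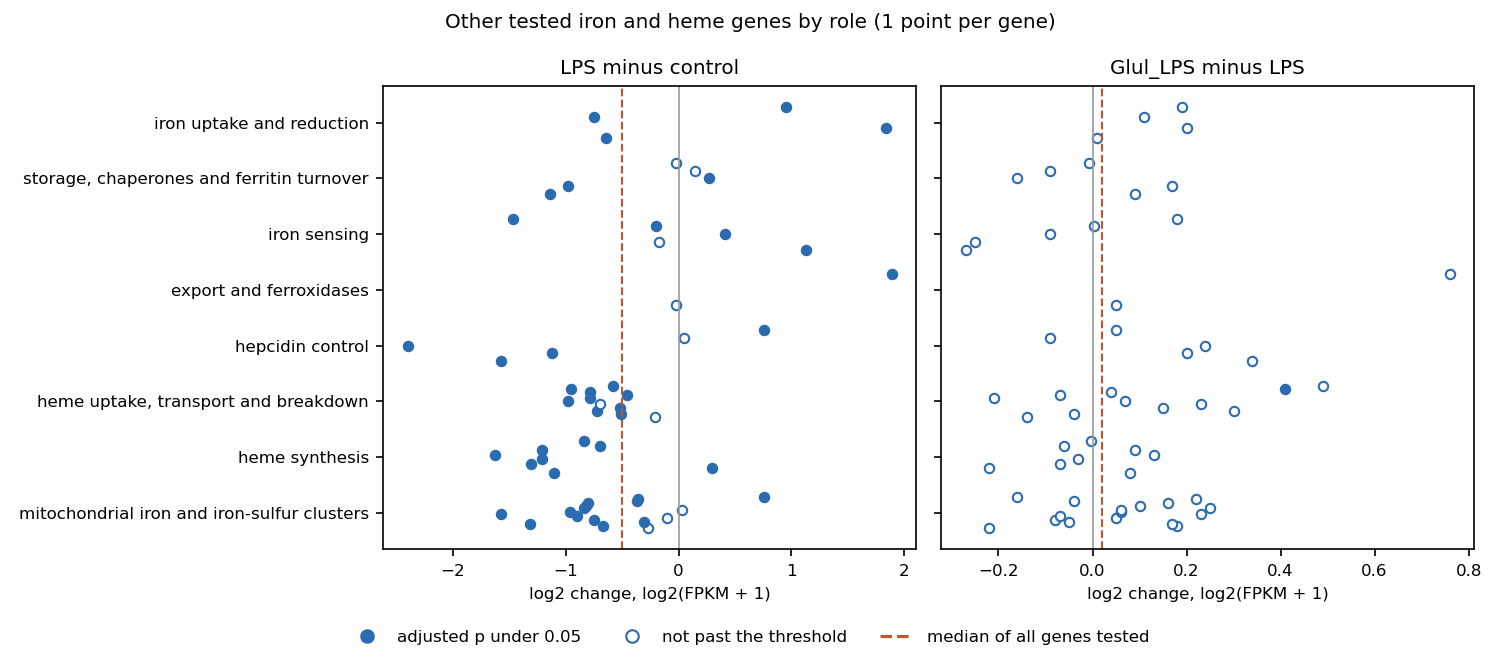
Log2 change of each of the 56 other tested iron and heme genes, grouped by role, for LPS minus control and Glul_LPS minus LPS on the log2(FPKM + 1) scale; filled points passed an adjusted p of 0.05 and the dashed line is the median of all tested genes. With LPS most heme synthesis genes lie left of the dashed line at -0.50 and Cp lies at 1.89; between Glul_LPS and LPS one point is filled, Slc48a1 at 0.41.

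The tested genes whose pattern over the 6 libraries lay closest to 4 of the members were found by the root mean square difference of log2(FPKM + 1) after each gene was centred on its mean. These are descriptions over 6 libraries that share their groups and depth. The added 1 compresses the changes of low genes, so a close pattern need not be an equal fold change. That the groups of a close gene lie in the same order follows from how it was chosen. Closest to Lcn2 was Cp (0.088), then Gja1 (0.122), at 0.5946 and 0.4781 FPKM in control, 4.208 and 4.749 in LPS and 7.178 and 7.887 in Glul_LPS. Both were higher in LPS than in control and highest in Glul_LPS, as Lcn2 was. Closest to Hmox1 were H2afx (0.034), which was at 0.4038 and 0.7605 FPKM in LPS and so low, and Dok3 (0.073), at 25.59 and 25.76 in control, 8.132 and 9.56 in LPS and 12.16 and 14.55 in Glul_LPS. Closest to Slc40a1 were H1f0 (0.047) and Phf1 (0.052), with 23.79 and 26.56 FPKM of H1f0 in control and 5.919 and 6.29 in LPS. Closest to Fth1 were Ppie (0.054) and Gstm5 (0.062), both lower in the LPS libraries than in the other 4 and both at under 5 FPKM.

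**Figure D4:**
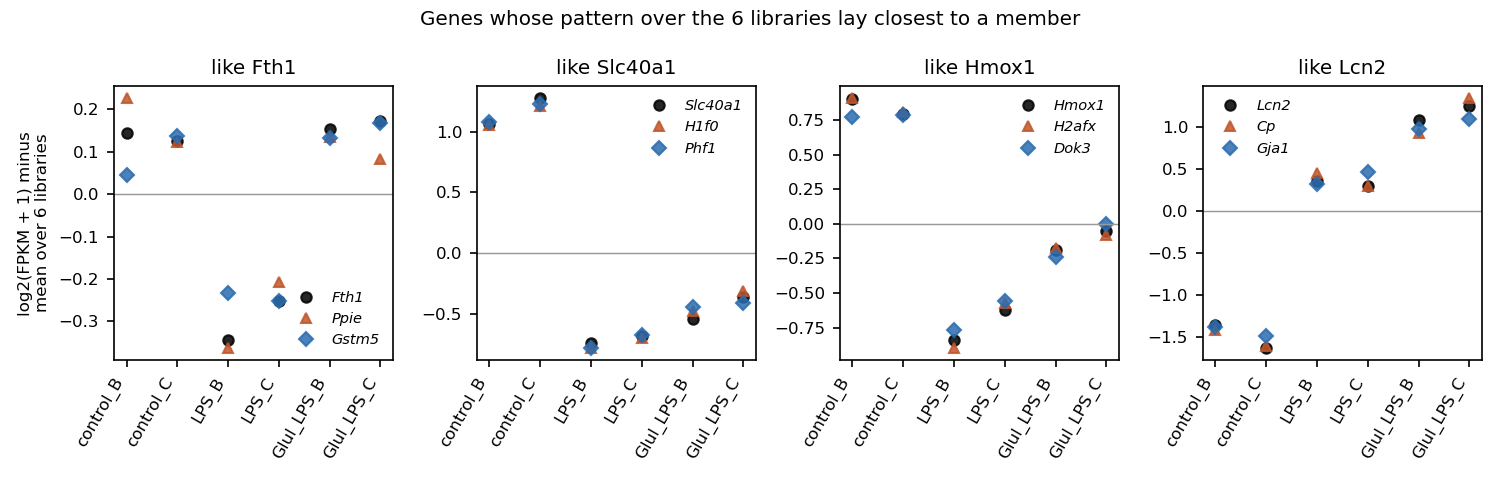
Centred log2(FPKM + 1) in the 6 libraries for Fth1, Slc40a1, Hmox1 and Lcn2 (black circles) and the 2 genes closest to each (triangles and diamonds). In the Fth1 panel the LPS libraries are lowest for all 3 genes, and Hmox1, H2afx and Dok3 are highest in control and lowest in LPS.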

How the data were processed

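The authors deposited FPKM per gene. Per the submitters' processing notes, CASAVA, HISAT2 2.1.0, HTSeq 0.6.0 and DESeq2 were used with GRCm38. Of the table's per-sample columns, 6 match no library described here and were not used. The 10 genes and the gene lists were chosen with earlier results of these data known. The 10962 genes that reached 1 FPKM in 2 or more libraries were tested on log2(FPKM + 1) with limma 3.58.1 in R 4.3.3, with a mean-variance trend, all 3 groups in one fit, two-sided, and Benjamini-Hochberg adjustment over all tested genes. A fold change on this scale understates the change of low genes. Whole fragments were recovered from the FPKM and GENCODE M21 exon lengths: 96.51% to 97.05% of single-exon genes above 0 came out whole within 0.01 fragment. Fth1 came out whole at a length of 866 bases, not the annotated 3469, so its level beside other genes depends on that length. All 10 members passed the filter. Named genes were the members, up to 4 called genes per role with the largest change with LPS, any listed gene called between Glul_LPS and LPS, the 2 genes closest to 4 members, Glul and the most abundant marker of each list. One gene that this rule names is not reported here. Listed genes not found by symbol were matched through RefSeq synonyms. Alternatives were other pseudocounts, filters and scalings, fits of 2 groups, a block, other spread models, voom on the fragments and leaving out each library. The code was tested on simulated data.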

Additional observations from a re-analysis of the deposited data

How the results depend on the processing

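Between LPS and control the calls of Slc40a1, Hmox1, Aco1, Lcn2, Slc11a2 and Hamp held under every alternative that tested them, each left-out library included (a lone library was assumed to vary like the others; Slc40a1, Hamp and Tfrc do not reach a mean of 5 FPKM). For Hamp this carries little weight, because it passed the filter on low values only through its LPS libraries, so a difference was built in. Centring on the median gene turned Fth1 to 0.08, Slc11a1 to 0.04, Tfrc to 0.36 and Ireb2 to 0.32, and quantile normalization turned Tfrc to 0.39 and Ireb2 to 0.26. Between Glul_LPS and control, centring turned Ftl1 to 0.22, Slc11a1 to 0.18 and Ireb2 to 0.29, quantile normalization turned Ireb2 to 0.23, and without 1 library Tfrc ranged from -0.18 to 0.29. A filter at a mean of 5 FPKM, which tests fewer genes, called 5055 genes for LPS and 4977 for Glul_LPS against control (9338 and 9241 in the reported fits) and 29 listed genes in the latter (46 reported).

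The comparison of Glul_LPS with LPS depended most on the settings. The 121 genes called became 9 without a filter, 264 at a mean of 5 FPKM, 59 with only both compared groups fitted, 42 without the trend, 549 with voom on the fragments, and 1 to 57 without 1 library. The 4 members called became 2 with a pseudocount of 0.1, 0 without a filter, 2 under quantile normalization, 1 with only both groups, 0 without the trend, and 0 to 1 without 1 library. The 1 listed gene became 0 without a filter, with only both groups, without the trend and without any 1 library, 3 at a mean of 5 FPKM and 4 with voom. The causes were not tested. The letters B and C showed no shared effect (the correlation of their differences between groups was -0.047 to 0). That cannot tell whether libraries of the same letter were paired. With the letter as a replicate block 1 member was called. Signs changed, with no call, for Mcoln1 under quantile normalization (-0.01) and centring (-0.02), and for Ireb2 under TPM (-0.0073), quantile normalization (-0.03) and centring (-0.03). Without 1 library the ranges also crossed 0 for Tfrc (-0.02 to 0.45), Slc11a2 (-0.0015 to 0.08), Mcoln1 (-0.11 to 0.14), Ireb2 (-0.04 to 0.04), Stat3 (-0.01 to 0.11), Slc46a1 (-0.14 to 0.23), Fech (-0.15 to 0.09), Isca1 (-0.02 to 0.13) and Glrx5 (-0.18 to 0.04). Hamp rests on few fragments, which limits its values.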
